A study of Mus musculus with 38 samples.

Results

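The cytochrome P450 genes were followed across mouse liver segments profiled with the GeoMx Digital Spatial Profiler. Members were taken by symbol, as every gene row that begins with Cyp and a digit, and 50 of 10547 genes met this rule. Family 1 held 2 of them, family 2 held 24, family 3 held 3 and family 4 held 11. The other 10 belonged to further families, most of them with a place in sterol, bile acid, steroid and vitamin metabolism. WT mice were compared with TrailΔmye mice, in which a conditional allele of the gene for TRAIL was combined with Cre driven by Lyz2, a gene of myeloid cells. Mice of both genotypes had the C57BL/6 background and were age- and gender-matched per the study's methods. They received rounds of 5 days of either control diet or DDC diet, a diet that injures bile ducts, with 3 days of chow between rounds, over 21 days in all, and the experiment ended on day 22. Regions of interest (ROIs) were drawn around portal tracts or in the parenchyma, and segments within them were collected by staining for PanCK, which marks cholangiocytes, or for IBA1, which marks macrophages.

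The 38 segments came from 23 ROIs. In the PanCK+ class there were 3 segments of control diet-fed WT mice, 4 of DDC-fed WT mice, 4 of control diet-fed TrailΔmye mice and 5 of DDC-fed TrailΔmye mice. The periportal IBA1+ class held 2, 4, 4 and 5 segments in the same order, and the parenchymal IBA1+ class held 1, 2, 2 and 2. Neither the mouse, the section nor the sex is given in the labels, so segments were the replicates. Since segments can share a mouse, all p-values below are too small to stand for mice. The gene deleted in TrailΔmye mice was not analysed here.

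P450 enzymes are heme proteins that insert an oxygen atom into their substrates, with electrons supplied by reductases and cytochrome b5 or, in mitochondria, by ferredoxin. Members of families 1 to 3 clear drugs and foreign compounds and metabolize steroids, family 4 hydroxylates fatty acids and eicosanoids, and Cyp7a1, Cyp7b1, Cyp8b1, Cyp27a1 and Cyp39a1 take part in making bile acids from cholesterol. In liver most of them belong to hepatocytes, often with a gradient between the portal tract and the central vein, and in mice several differ between males and females. Neither segment class was chosen for hepatocytes, so transcripts of hepatocyte P450 genes in these segments were read beside hepatocyte markers.

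Total counts per segment ranged from 20319 to 836971, and 27.2% of all values stood at 1 count, the lowest value in the table. For the P450 genes this share was 20.3%. Of the 50 members, 27 had a mean of 10 counts or more and none reached 10 counts in all 38 segments. Levels are given below as Q3-normalized counts, which scale each segment to one 75th percentile (10.5). In this unit 1 count was worth 3.50 to 5.25 in every segment of control diet-fed WT mice and as little as 0.131 in the deepest segment of DDC-fed TrailΔmye mice, so the lowest levels in the WT segments are bounds rather than measured levels. Each gene is read by its own probe, so the means over all 38 segments, which also differ in depth and class, show how much signal each gene gave and not which transcript was more abundant. The 10 members with the most signal were Cyp2e1 (107 Q3-normalized counts), an enzyme that oxidizes ethanol and other small molecules, Cyp2d10 (55.8), Cyp2a4 (55.0), Cyp2f2 (55.0), Cyp2d26 (53.6), Cyp2d12 (53.0), Cyp2c29 (39.1), Cyp2c67 (38.0), Cyp3a41a (34.8) and Cyp2a22 (26.5). Cyp26a1, which degrades retinoic acid, gave the least (4.495).

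The share of all counts that came from the 50 P450 genes was lower after DDC in every class and genotype, with no overlap between diets. Periportal IBA1+ segments gave 0.7998% to 0.949% in control diet-fed WT mice and 0.376% to 0.526% in DDC-fed WT mice. In TrailΔmye mice the same class gave 0.894% to 1.26% on control diet and 0.411% to 0.471% on DDC. PanCK+ segments gave 0.583% to 0.700% and 0.347% to 0.418% in WT mice, and 0.682% to 0.790% and 0.369% to 0.442% in TrailΔmye mice. Within each genotype and diet the parenchymal IBA1+ segments held the highest shares, at 1.35% in the only control diet-fed WT segment, 0.970% to 1.00% in DDC-fed WT mice, 1.31% to 1.41% in control diet-fed TrailΔmye mice and 0.766% to 0.813% in DDC-fed TrailΔmye mice. Values at 1 count are part of these shares. In the IBA1+ segment of ROI 007, of DDC-fed WT mice, 17 of 50 members were above 1 count, with 81 P450 counts in all. In periportal segments of DDC-fed TrailΔmye mice 49 or 50 members were above it. The part of the lowest value in the shares was not tested.

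The summed share of 8 hepatocyte markers that are no P450 genes moved the same way in periportal segments. It was 6.73% to 7.53% and 1.501% to 4.25% in periportal IBA1+ segments of WT mice on control diet and DDC, and 7.81% to 10.6% and 1.11% to 2.96% in those of TrailΔmye mice. In PanCK+ segments it was 2.76% to 4.42% and 1.68% to 2.54% in WT mice, and 3.37% to 7.00% and 0.978% to 2.92% in TrailΔmye mice. For each 100 hepatocyte marker counts there were 8.88 to 14.8 P450 counts in periportal IBA1+ segments of control diet-fed TrailΔmye mice and 15.2 to 39.9 in those of DDC-fed TrailΔmye mice. Relative to these markers the P450 genes were thus more abundant after DDC in this class, the opposite of their share of all counts. This was no trait of the P450 genes alone, since 99.7% of all genes lay above 0 with counts scaled to these markers. The upper end of the ratio came from ROI 035, and the other DDC segments of this group reached 22.8. In the other periportal groups the ratio overlapped between diets, with 11.9 to 12.6 and 12.4 to 28.2 in periportal IBA1+ segments of WT mice, 13.6 to 25.4 and 15.8 to 24.5 in WT PanCK+ segments, and 11.3 to 20.8 and 12.6 to 42.6 in TrailΔmye PanCK+ segments, where the upper end was again ROI 035 and the other DDC segments reached 24.5. The negative-probe count of ROI 035 was 43.1 in its PanCK+ and 27.8 in its IBA1+ segment, at 75th percentiles of 80 and 53 counts, while the other periportal segments of DDC-fed TrailΔmye mice had 2.20 to 4.78 at 75th percentiles of 13 to 26. The part of this background in the results was not tested. Fewer hepatocytes in a segment and less P450 RNA per hepatocyte cannot be told apart in these data. The class labels were borne out by their markers, since the summed share of 10 cholangiocyte markers was 0.487% to 1.85% in PanCK+ segments and 0.03001% to 0.324% in periportal IBA1+ segments, and that of 10 macrophage markers was 0.0399% to 0.132% and 0.327% to 0.830%.

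**Figure D1:**
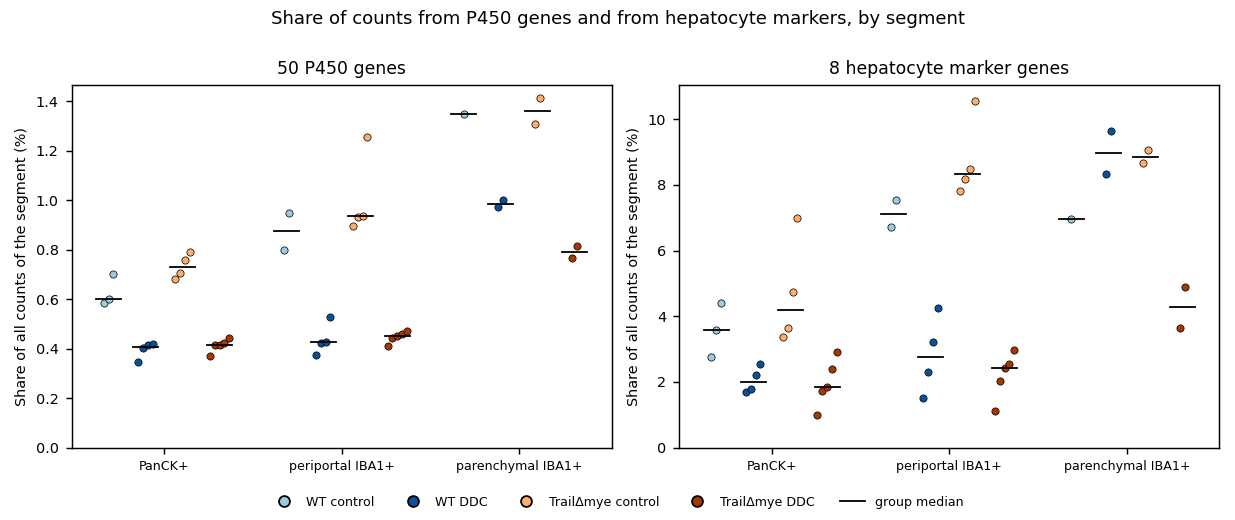
Share of all counts of each segment (%) that came from the 50 P450 genes (left) and from 8 hepatocyte marker genes (right), for WT and TrailΔmye mice on control or DDC diet in the 3 segment classes. Points are segments and lines are group medians, and in every class and genotype the P450 share of the DDC segments lay below that of the control segments.

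The first question was how the P450 genes differed between DDC and control diet. In TrailΔmye mice the chromosome Y gene Gm21783 was low in the control segments only, as given further on. Sex is not in the labels, so diet and sex cannot be told apart in the TrailΔmye comparisons below. In periportal IBA1+ segments of TrailΔmye mice 22 of 50 members fell and 2 rose, by edgeR's quasi-likelihood test at a Benjamini-Hochberg adjusted p under 0.05, while 9.38% of all genes were called in this comparison (5.18% lower and 4.2% higher). The median log2 fold change was -0.68 over the members and 0.07 over all genes, and 41 of 50 members lay below 0. Family 2 accounted for 14 of the members that fell, out of its 24, and none of them rose. In family 3, 2 of 3 fell, in family 4, 3 of 11 fell and 1 rose, in family 1, 1 fell and 1 rose, and 2 of the 10 members of other families fell. All 8 hepatocyte markers fell in the same comparison, with a median of -1.82, and their part in the P450 changes was not tested. When counts were scaled to these 8 markers instead, 35 members were called higher and 1 lower, against 10375 and 13 of all 10547 genes. The median was 1.58 over the members and 2.38 over all genes, so the direction of most members depends on the scale. On that scale the member median lay above 0 in all 5 diet comparisons (0.12 to 1.58) and below the median of all genes (0.61 to 2.38). With each segment thinned to the smallest total of its class, 4 members were called in this comparison, all lower. Of all genes, 20 were then called higher and 40 lower.

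Cyp2c67, a family 2 enzyme of the mouse Cyp2c cluster, changed most. In periportal IBA1+ segments of control diet-fed TrailΔmye mice it stood at 131, 114, 122 and 151 Q3-normalized counts, and in those of DDC-fed TrailΔmye mice at 3.09, 6.46, 6.57, 9.71 and 9.00. Every control segment lay far above every DDC segment, and the log2 fold change was -4.14 ± 0.30 (SE, edgeR adjusted p = 2.11e-15). Cyp2e1 stood at 99.8, 135, 161 and 332 on control diet and at 50.05, 20.2, 43.3, 44.0 and 31.5 on DDC. The groups did not overlap, and the control segment of ROI 029 was the highest by far (-2.25 ± 0.32, adjusted p = 4.21e-07). Cyp3a41a, a female-biased member of the family 3 enzymes that oxidize many drugs and steroids, stood at 40.3, 48.6, 93.9 and 152 on control diet and at 19.2, 30.7, 21.0, 8.52 and 16.5 on DDC, again with no overlap (-2.20 ± 0.31, adjusted p = 5.05e-07).

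Other members of family 2 fell by between 1.07 and 2.34 on the log2 scale. Cyp2b13, a female-biased member, stood at 35.0, 22.3, 32.2 and 35.5 on control diet and at 3.71, 6.46, 3.94, 8.13 and 5.25 on DDC (-2.34 ± 0.24, edgeR adjusted p = 6.32e-11). Cyp2f2, a periportal hepatocyte enzyme also known from airway cells, stood at 142, 68.3, 76.8 and 60.4 and at 22.9, 32.3, 32.2, 15.5 and 27.0 (-1.75 ± 0.31, adjusted p = 3.68e-05). Neither gene had overlapping groups. Some epoxygenases of arachidonic acid were among those that fell, with Cyp2c23 at -1.85, Cyp2c37 at -2.09, Cyp2c50 at -1.13, Cyp2c29 at -1.13 and Cyp2j5 at -1.76. Not every epoxygenase fell, since Cyp2j6 was not called in this comparison. Cyp2c70, which makes muricholic acids in mice, fell by 1.53 and Cyp2d26 fell by 1.93, while Cyp2a4, a female-biased testosterone hydroxylase, fell by 1.73 and Cyp2a22 fell by 1.27. Among the called members of family 2, only Cyp2c50 and Cyp2d40 (-1.07, adjusted p = 0.0356) had overlapping groups. The call of Cyp2d40 held in 3 of 9 fits that each left out 1 segment, and that of Cyp2c50 was lost without the control segment of ROI 029 (-0.78, adjusted p = 0.124).

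Within family 4, Cyp4a10 and Cyp4a14, fatty acid ω-hydroxylases known as targets of PPARα, fell together. Cyp4a14 stood at 14.0, 24.9, 17.1 and 30.2 on control diet and at 3.71, 8.08, 2.63, 5.55 and 3.75 on DDC, with no overlap (-2.09 ± 0.26, edgeR adjusted p = 1.8e-08). Cyp4a10 fell by 1.996 ± 0.26 (adjusted p = 5.92e-08) and Cyp4f14 fell by 1.72 ± 0.26 (adjusted p = 1.43e-06), neither with overlapping groups. Outside families 1 to 4, Cyp17a1, a steroid 17α-hydroxylase with female-biased expression in mouse liver, stood at 24.5, 19.7, 14.4 and 17.1 on control diet and at 5.56, 6.46, 1.31, 4.36 and 2.25 on DDC (-2.11 ± 0.27, adjusted p = 4.22e-08). These groups did not overlap either. Cyp1a2, which metabolizes caffeine and many drugs, and Cyp3a13 were called with smaller changes (-0.92 and -0.87) and with overlapping groups. Without the control segment of ROI 029 the call of Cyp1a2 was lost (-0.56, adjusted p = 0.283), and that of Cyp3a13 held in 4 of 9 fits that each left out 1 segment.

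Both members that rose have a place outside hepatocytes. Cyp4f18, a leukotriene hydroxylase known from neutrophils and other myeloid cells, stood at 3.50, 6.57, 4.60 and 2.63 in periportal IBA1+ segments of control diet-fed TrailΔmye mice and at 20.4, 17.8, 19.0, 15.9 and 25.5 in those of DDC-fed TrailΔmye mice. The 5 DDC segments were all higher, by 2.09 ± 0.31 on the log2 scale (edgeR adjusted p = 1.43e-06). Cyp1b1, a family 1 enzyme that acts on estrogens and polycyclic hydrocarbons and is found mainly outside hepatocytes, stood at 1.75, 2.63, 2.63 and 3.94 (1 to 4 counts) and at 10.5, 7.27, 13.1, 9.91 and 11.3 (9 to 50 counts). Here too all DDC segments were higher (1.86 ± 0.34, adjusted p = 7.57e-05). In the same comparison 2 of 10 macrophage markers fell, Clec4f and Vsig4, and none rose, and 2 of 10 cholangiocyte markers rose, Epcam and Spp1. The summed share of macrophage markers was 0.389% to 0.549% on control diet and 0.337% to 0.684% on DDC, and its part in these results was not tested.

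**Figure D2:**
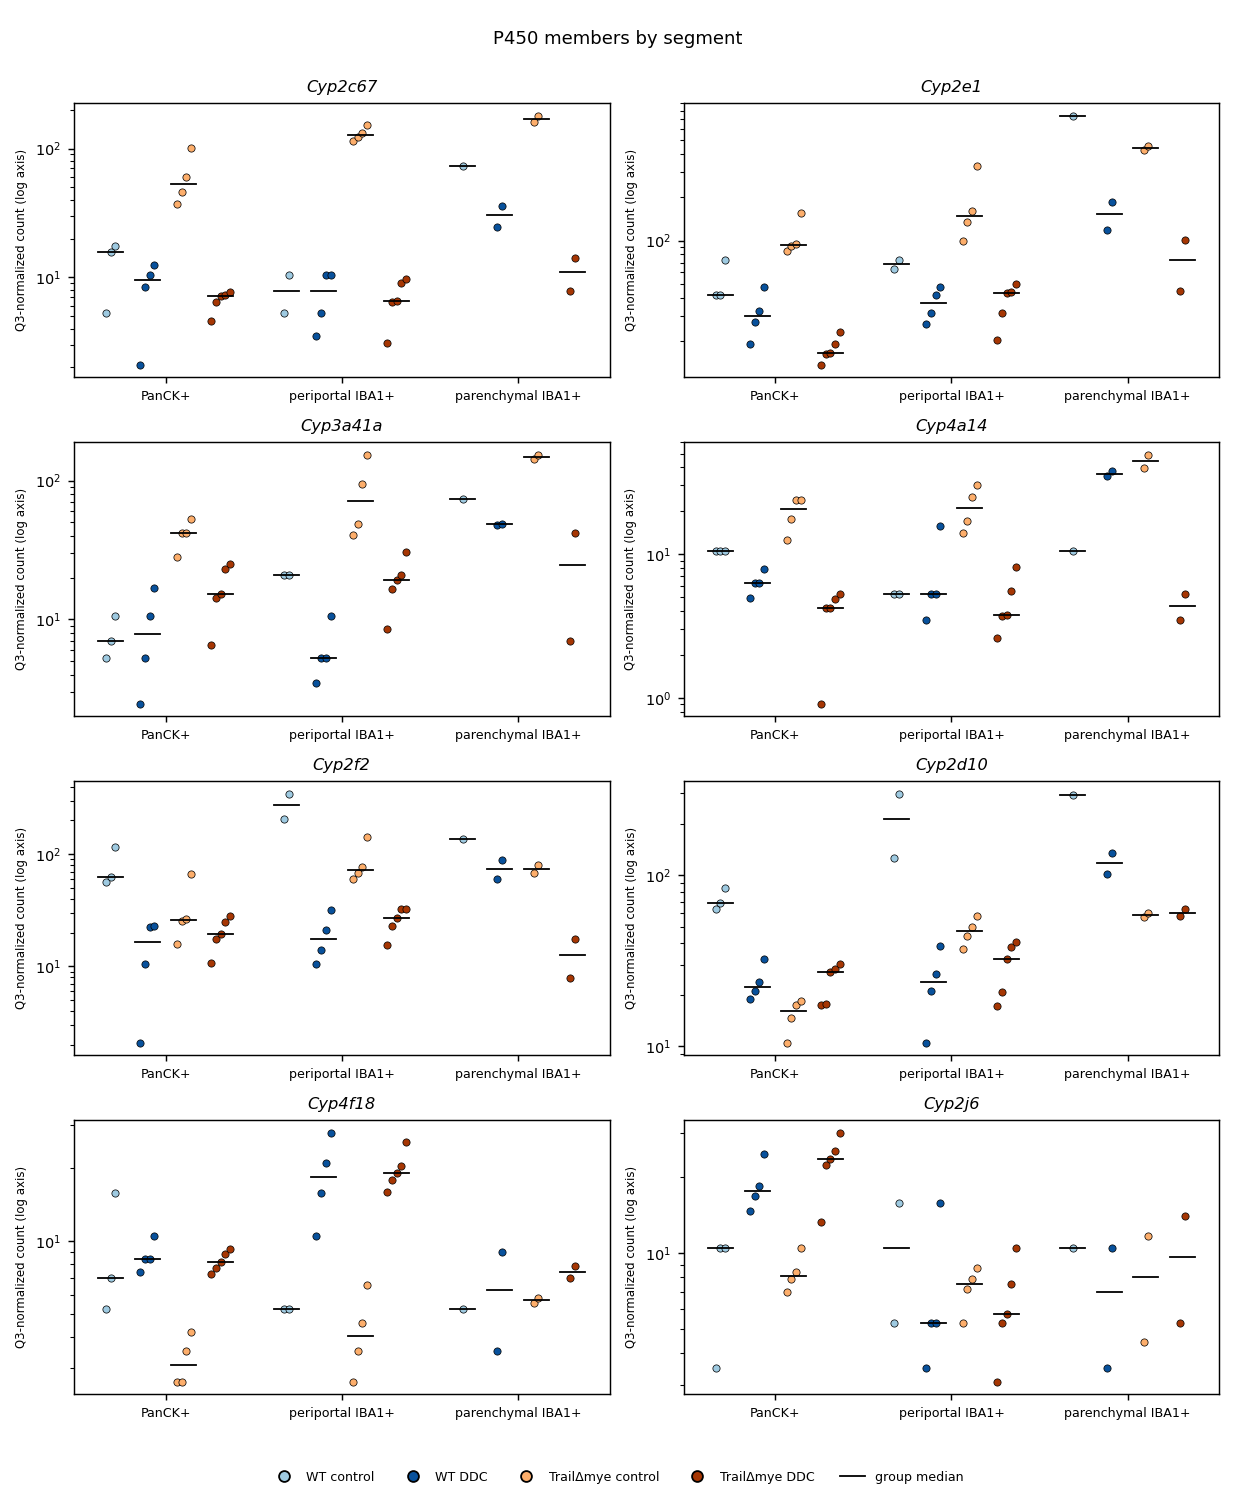
Q3-normalized counts (log axis) of 8 P450 genes in every segment, by segment class, genotype and diet, with the group median as a line. Cyp2c67, Cyp2e1, Cyp3a41a and Cyp4a14 were lower in the DDC segments of TrailΔmye mice in both periportal classes. On the scale of hepatocyte markers Cyp2e1 and Cyp4a14 were not lower in the IBA1+ class, where 1 of the 50 members was called lower. Cyp2f2 and Cyp2d10 were lower in the periportal DDC segments of WT mice, and Cyp4f18 was higher in periportal IBA1+ segments of TrailΔmye mice after DDC.

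Promoter sequence is shown for the 4 members that held CAAAGTCCA, a motif described below. It is also shown for Cyp2f2 and Cyp2d10, whose diet changes in WT mice are given further on. RefSeq (GRCm38.p6) held a start site for 38 of the 50 members, with 42 entries, and 9 motifs were searched on both strands in the 250 bases before each start. CAAAGTCCA, a form of the site bound by HNF4A, was found in 4 of 42 entries (9.52%) and in 0.384% of all 32851 entries. The members that held it were Cyp2c67, Cyp2c70, Cyp3a41a and Cyp8b1. All of them fell with DDC in periportal IBA1+ segments of TrailΔmye mice, where 22 of all 50 members fell. A link between the motif and the fall was not tested. TATAAA stood in 35.7% of the P450 entries and in 12.4% of all entries, TGACCTTTG in 4.76% and 0.426%, TTCNNNGAA in 4.76% and 7.02%, GCGTG in 21.4% and 28.2%, and GTTAAT in 9.52% and 6.43%. The 2 P450 entries with TGACCTTTG both belonged to Cyp3a25. ATCGAT was found in none of the 42 entries. A direct repeat of AGGTCA with 1 base of any kind between the copies, and one of TGAACT with 4 such bases, were found in none either. A match of letters is a description of the sequence and says nothing about binding. Below, the 120 bases before each start are printed 5′ to 3′ on the gene's strand, with CAAAGTCCA and TATAAA, or TTTATA where it lies on the other strand, in capitals.
Cyp2c67 (chr19:39649043-39649162, minus strand): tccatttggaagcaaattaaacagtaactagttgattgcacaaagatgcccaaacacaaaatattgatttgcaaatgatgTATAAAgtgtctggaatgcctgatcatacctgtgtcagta
Cyp3a41a (chr5:145720137-145720256, minus strand): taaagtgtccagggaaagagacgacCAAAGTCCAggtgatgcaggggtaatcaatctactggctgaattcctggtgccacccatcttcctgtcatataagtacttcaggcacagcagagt
Cyp8b1 (chr9:121916306-121916425, minus strand): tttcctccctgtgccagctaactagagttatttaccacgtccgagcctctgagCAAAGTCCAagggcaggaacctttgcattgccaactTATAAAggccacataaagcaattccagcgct
Cyp2c70 (chr19:40187287-40187406, minus strand): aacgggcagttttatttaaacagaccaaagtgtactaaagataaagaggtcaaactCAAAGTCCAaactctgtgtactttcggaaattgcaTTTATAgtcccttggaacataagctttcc
Cyp2f2 (chr7:27119835-27119954, plus strand): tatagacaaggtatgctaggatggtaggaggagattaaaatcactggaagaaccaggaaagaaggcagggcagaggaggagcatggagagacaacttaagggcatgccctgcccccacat
Cyp2d10 (chr15:82407195-82407314, minus strand): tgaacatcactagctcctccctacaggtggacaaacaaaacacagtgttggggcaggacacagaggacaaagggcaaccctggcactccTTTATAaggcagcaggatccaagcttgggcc
The CAAAGTCCA of Cyp2c67 lies upstream of the stretch printed here, and the stretch of Cyp2f2 holds neither motif.

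In PanCK+ segments of TrailΔmye mice 5 members were lower on DDC and 1 was higher, by edgeR's quasi-likelihood test. Of all genes 2.1% were called (0.664% lower and 1.43% higher). The member median was -0.42 and that of all genes 0.18. Cyp2c67 stood at 102, 36.8, 60.4 and 46.2 Q3-normalized counts on control diet and at 7.27, 7.70, 4.57, 6.43 and 7.14 on DDC (-3.15 ± 0.28, adjusted p = 2.41e-16). Cyp2e1 stood at 91.0, 84.0, 94.5 and 155 and at 16.6, 16.1, 13.7, 19.2 and 23.1 (-2.58 ± 0.29, adjusted p = 3.21e-11). Neither gene had overlapping groups. Cyp4a14 (-2.17, adjusted p = 2.38e-06), Cyp3a41a (-1.42, adjusted p = 0.00145) and Cyp2a4 (-1.18, adjusted p = 0.00711) also fell with no overlap, and each of these 5 members was called lower in periportal IBA1+ segments as well. The member that rose was Cyp2j6, an epoxygenase of family 2, at 7.00, 10.5, 7.88 and 8.40 on control diet and at 25.5, 30.1, 22.4, 13.3 and 23.5 on DDC. Its change of 1.36 ± 0.40 (adjusted p = 0.047) was past the threshold in 1 of 9 fits that each left out 1 segment. Of the 8 hepatocyte markers 2 fell in this comparison, Alb and Apoa2, with a median of -0.89 over the list, and 3 of 10 cholangiocyte markers rose. Their part in these results was not tested. Scaled to the hepatocyte markers, 16 members were called higher and 2 lower, against 5950 and 12 of all 10547 genes. Without the DDC segment of ROI 035, 10 members were called, against 295 of all genes called higher and 107 lower.

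Fewer members were called in WT mice, whose periportal segments had totals of 20319 to 61665, against 35078 to 836971 in TrailΔmye mice. In the periportal IBA1+ class of WT mice 3 of 50 members fell with DDC and none rose, with 1.19% of all genes called (1.04% lower and 0.142% higher) and medians of -0.74 over members and -0.16 over all genes. Cyp2f2 stood at 205 and 347 Q3-normalized counts on control diet and at 10.5, 31.5, 21.0 and 14.0 on DDC (-3.86 ± 0.49, edgeR adjusted p = 3.01e-07). Cyp2d10, a relative of the drug-metabolizing human CYP2D enzyme, stood at 126 and 299 and at 21.0, 26.3, 10.5 and 38.5 (-3.07 ± 0.47, adjusted p = 1.55e-05). Cyp4a12a, a male-biased fatty acid ω-hydroxylase, stood at 42.0 and 52.5 (8 and 10 counts) and at 10.5, 5.25, 5.25 and 7.00 (1 or 2 counts), with a change of -2.73 ± 0.55 (adjusted p = 0.00166). Both control segments lay above all 4 DDC segments for each of the 3 genes. Without the control segment of ROI 005, 1 of the 3 calls remained, and without the DDC segment of ROI 009 there were 6 calls. Cyp2a4 stood at 1 count in both control segments and at 2 to 8 counts on DDC, at least 1.33-fold higher with 3 counts per control segment as the floor, and was not called (adjusted p = 0.938). Of the hepatocyte markers 5 of 8 fell, with a median of -1.74, and their part was not tested.

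Cyp2f2 and Cyp2d10 also fell in WT PanCK+ segments, where 0.91% of all genes were called (0.417% lower and 0.493% higher) and no member rose. Cyp2f2 stood at 56.0, 116 and 63.0 Q3-normalized counts on control diet and at 22.2, 2.10, 10.5 and 23.1 on DDC (-2.42 ± 0.45, edgeR adjusted p = 0.000237). Cyp2d10 stood at 63.0, 68.3 and 84.0 and at 32.1, 21.0, 23.6 and 18.9 (-1.60 ± 0.39, adjusted p = 0.013). Neither had overlapping groups, although 1 of the 2 calls was lost without the control segment of ROI 003 or 005 or the DDC segment of ROI 013. Cyp2c29 had the highest change of the members, 2.12 ± 0.62, at 3.50, 5.25 and 10.5 on control diet (1 or 2 counts) and at 19.8, 29.4, 23.6 and 33.6 on DDC, and did not pass the test (adjusted p = 0.0745). The member median was -0.63 and that of all genes -0.17, and 1 of 8 hepatocyte markers fell, Apoa2.

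**Figure D3:**
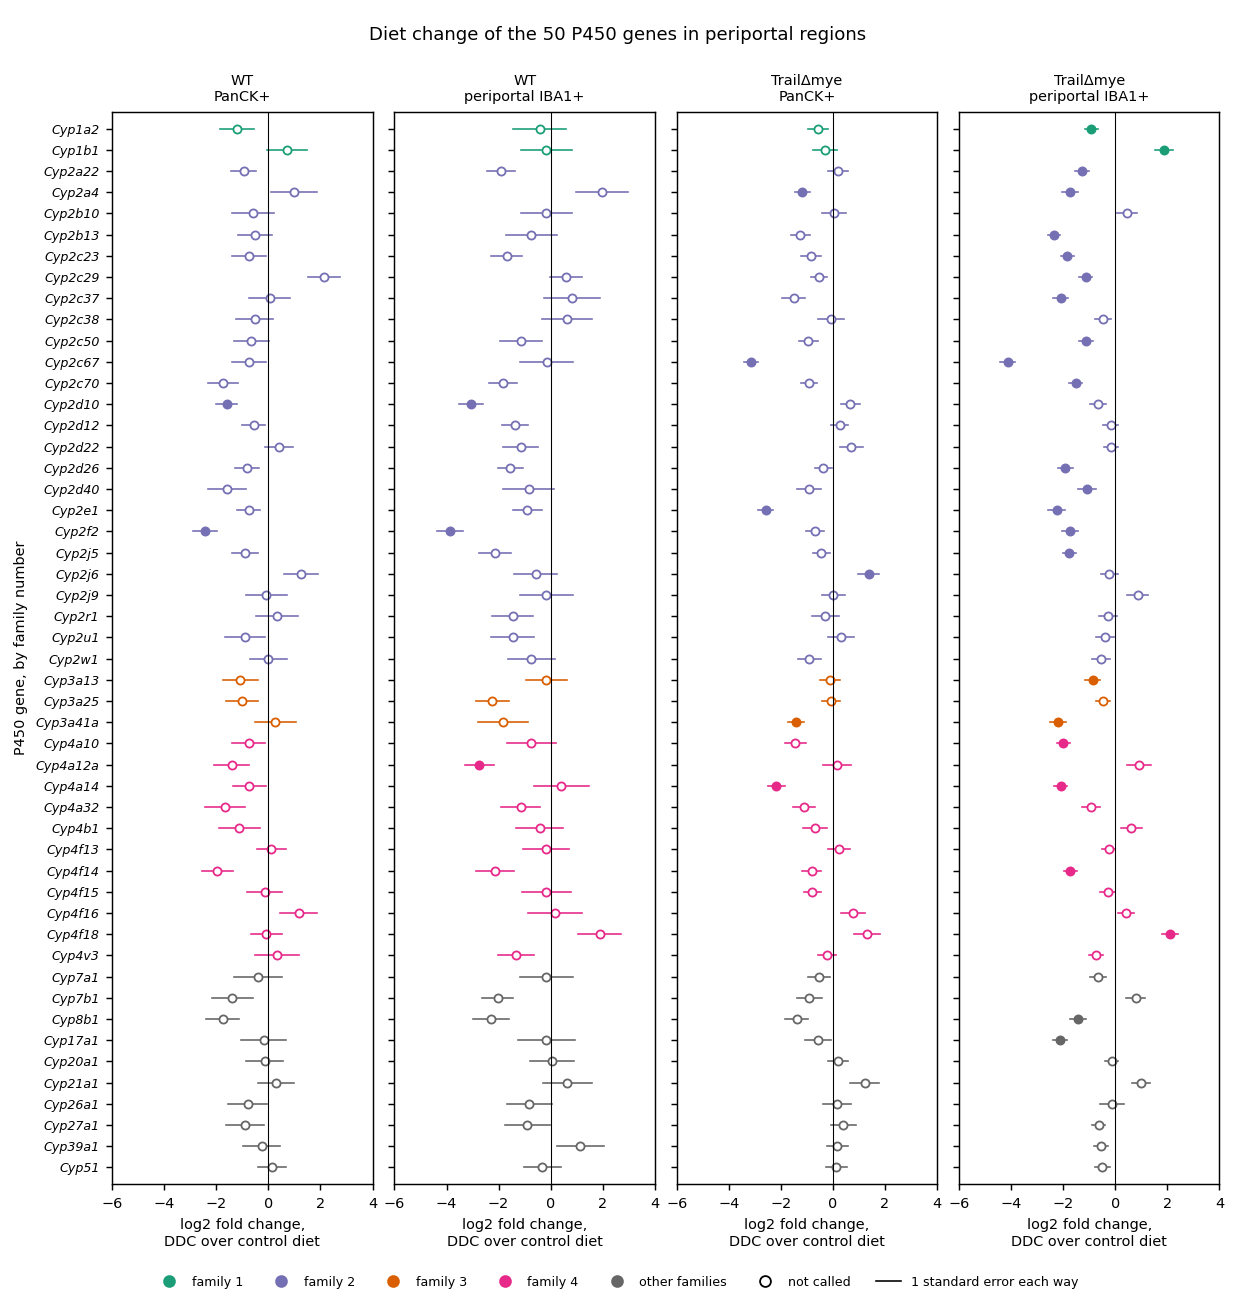
Log2 fold change of DDC over control diet for each of the 50 P450 genes in the 4 periportal comparisons, coloured by P450 family, with 1 standard error to each side and filled points where the edgeR adjusted p was under 0.05. The filled points number 2 in WT PanCK+, 3 in WT periportal IBA1+, 6 in TrailΔmye PanCK+ and 24 in TrailΔmye periportal IBA1+ segments, and all but 3 of them lie below 0. Scaled to hepatocyte markers, most members of the last panel lay above 0, as did 99.7% of all genes in that comparison. Where a gene stood at 1 count in all segments of a group, its point is a fitted value and no bound.

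In the parenchyma both genotypes were fitted together with a term for genotype, since groups held 1 or 2 segments. On DDC 6 members were lower and none was higher, against 0.759% of all genes called (0.465% lower and 0.294% higher). The medians were -0.44 over members and -0.15 over all genes. Cyp2e1 stood at 741 in the control diet-fed WT segment and at 186 and 119 in DDC-fed WT mice, and at 426 and 453 and then 102 and 44.6 in TrailΔmye mice (-2.49 ± 0.30, edgeR adjusted p = 9.67e-06). Cyp2c67 stood at 73.5 against 24.5 and 36.0, and at 160 and 180 against 14.0 and 7.88 (-2.69 ± 0.45, adjusted p = 0.00126). For both genes all control segments lay above all DDC segments. Cyp2b13 (-2.54), Cyp2c37 (-1.93), Cyp3a41a (-1.78) and Cyp2f2 (-1.62) were called as well, at adjusted p values of 0.0152, 0.0288, 0.0372 and 0.0444. Without the DDC segment of ROI 037 or that of ROI 038, both of TrailΔmye mice, 2 calls were made, and the calls of Cyp3a41a and Cyp2f2 each held in 2 of 7 fits that left out 1 segment. The hepatocyte marker share did not move with the diet in the same way in both genotypes, at 6.97% against 8.33% and 9.63% in WT mice and 8.65% to 9.05% against 3.66% to 4.90% in TrailΔmye mice, and 2 of 8 hepatocyte markers fell, Ttr and Apoa2.

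Whether the diet changes differed between genotypes was tested with the interaction term. In PanCK+ segments the change of Cyp2d10 differed (2.27 ± 0.53, edgeR adjusted p = 0.0406), which was the only member called among the 0.114% of all genes (0.104% higher and 0.00948% lower). Cyp2d10 fell in WT mice as given above, while in TrailΔmye mice it stood at 17.5, 10.5, 18.4 and 14.7 on control diet and at 27.1, 17.5, 28.3, 17.6 and 30.3 on DDC. This call held in 3 of 16 fits that each left out 1 segment, and it was lost with TMM factors (adjusted p = 0.582), limma (adjusted p = 0.0556) and DESeq2 (adjusted p = 0.879). Cyp4a12a was, in the periportal IBA1+ class, the only member called among 0.0569% of all genes, each with a higher term (3.65 ± 0.72, adjusted p = 0.0128), with 1 to 2 counts in all 4 control segments of TrailΔmye mice, and the call was lost without any of 4 segments, those of ROI 005, 011, 013 or 028. It was also lost with counts of 1 set to 0 (4.43, adjusted p = 0.119) and with DESeq2 (3.51, adjusted p = 0.386). The difference was not called for Cyp2c67, with interaction terms of -3.98 ± 1.06 (adjusted p = 0.341) in periportal IBA1+ segments and -2.41 ± 0.68 (adjusted p = 0.289) in PanCK+ segments. For Cyp2f2 it was 2.11 ± 0.60 (adjusted p = 0.556) and for Cyp2e1 in PanCK+ segments -1.82 ± 0.52 (adjusted p = 0.289). The numbers of members called in the 2 genotypes therefore do not show by themselves that the responses differed.

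The genotypes differed in a small set of members on control diet. Periportal IBA1+ segments had 2 of 50 members higher and 4 lower in TrailΔmye mice, against 0.199% of all genes called (0.0379% higher and 0.161% lower). Cyp2a4 stood at 5.25 and 5.25 Q3-normalized counts in WT mice, 1 count in each segment, and at 112, 113, 148 and 127 in TrailΔmye mice. With 3 counts per WT segment as the floor this is at least 7.94-fold higher in TrailΔmye mice (edgeR adjusted p = 0.000407), and the bound covers counting error only. Cyp2c67 stood at 5.25 and 10.5 in WT mice and at 131, 114, 122 and 151 in TrailΔmye mice (4.02 ± 0.65, adjusted p = 0.00015). Both groups lay apart for both genes. In the other direction, Cyp4a12a stood at 42.0 and 52.5 in WT mice and at 3.50, 2.63, 1.31 and 1.31 in TrailΔmye mice (-4.51 ± 0.53, adjusted p = 7.8e-08), and Cyp7b1, the oxysterol 7α-hydroxylase, which is male-biased, stood at 26.3 and 31.5 and at 3.50, 2.63, 4.60 and 2.63 (-2.98 ± 0.54, adjusted p = 0.00307). Cyp2d10 (-2.18 ± 0.39, adjusted p = 0.000792) and Cyp2f2 (-1.68 ± 0.39, adjusted p = 0.0364) were also lower. Without the WT segment of ROI 005, 2 of the 6 members were called, and the call of Cyp2f2 held in 2 of 6 fits that each left out 1 segment. None of the 8 hepatocyte markers was called here (median -0.16).

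PanCK+ segments gave 3 members higher and 1 lower in control diet-fed TrailΔmye mice, against 0.218% of all genes (0.0664% higher and 0.152% lower). Cyp2a4 stood at 1 count in each of the 3 WT segments and at 80.5, 34.1, 49.9 and 75.6 Q3-normalized counts in TrailΔmye mice, at least 4.29-fold higher by the same floor (edgeR adjusted p = 0.000183). Cyp2c67 stood at 17.5, 15.8 and 5.25 and at 102, 36.8, 60.4 and 46.2 (2.13 ± 0.47, adjusted p = 0.00958). Cyp3a41a stood at 7.00, 10.5 and 5.25 and at 28.0, 42.0, 42.0 and 52.5 (2.47 ± 0.61, adjusted p = 0.0457), a call that held in 1 of 7 fits without 1 segment. Cyp2d10 stood at 63.0, 68.3 and 84.0 and at 17.5, 10.5, 18.4 and 14.7 (-2.22 ± 0.43, adjusted p = 0.000914). None of these groups overlapped. Without the WT segment of ROI 001 or that of ROI 005, 2 members were called. None of the 8 hepatocyte markers was called in this class either (median -0.10). In the parenchyma Cyp4a12a (-3.86 ± 0.60, adjusted p = 0.0029) and Cyp2d10 (-1.63 ± 0.33, adjusted p = 0.0233) were lower in TrailΔmye mice, against 0.152% of all genes. The first of these rested on the only control diet-fed WT segment, without which its change was -0.69 (adjusted p = 0.964). The call of Cyp2d10 held in 2 of 7 fits that each left out 1 segment, and its change ran from -1.81 to -1.01 in them (adjusted p up to 0.563). Of the hepatocyte markers 2 of 8 were lower in the same comparison (median -0.67), and their part was not tested.

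Several of these members are known for a difference between the sexes, so sex-biased and sex-linked genes were set beside them. On control diet in periportal IBA1+ segments all 5 female-biased P450 genes measured lay above 0 in the genotype comparison, with a median of 1.97 and 1 of 5 called, and of the 3 male-biased ones 2 were called lower. Among genes that are no P450 genes, 8 of 9 female-biased genes lay above 0 (median 1.13) and none of 5 male-biased genes did (median -0.9974), with none of either list called. Gm21783, a gene of chromosome Y, stood at 26.3 and 63.0 Q3-normalized counts in control diet-fed WT mice and at 1.75, 5.25, 3.94 and 1.31 in control diet-fed TrailΔmye mice (-3.72 ± 0.69, edgeR adjusted p = 0.00147). On DDC it stood at 68.3, 31.5, 21.0 and 42.0 in WT mice and at 69.2, 97.8, 55.1, 25.6 and 48.0 in TrailΔmye mice, so the control diet-fed TrailΔmye segments alone were low. PanCK+ segments gave 98.0, 126 and 105 for control diet-fed WT mice and 3.50, 2.63, 2.63 and 6.30 for control diet-fed TrailΔmye mice (-4.76 ± 0.55, adjusted p = 7.09e-10). Its values were 39.4 to 86.5 in DDC-fed WT mice and 22.1 to 61.0 in DDC-fed TrailΔmye mice. In the parenchyma the control diet-fed TrailΔmye segments stood at 4.67 and 5.53 and all other segments at 14.0 to 42.0. Ddx3y, also on chromosome Y, stood at 1.75, 9.19, 1.31 and 2.63 in periportal IBA1+ segments of control diet-fed TrailΔmye mice and at 6.80 to 11.2 in those of DDC-fed TrailΔmye mice (1.53 ± 0.37, adjusted p = 0.0025), and its genotype difference on control diet was not called (-1.61, adjusted p = 1).

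Of the 4 chromosome Y genes measured, only Gm21783 was called in the genotype comparison on control diet. Eif2s3y (-1.36, edgeR adjusted p = 1) and Uty (0.15, adjusted p = 1), also on chromosome Y, were not called in periportal IBA1+ segments. In the diet comparison of TrailΔmye mice, Gm21783 rose by 4.10 ± 0.44 (edgeR adjusted p = 6.46e-10) in this class and Ddx3y rose as given above, Eif2s3y (0.61, adjusted p = 0.284) and Uty (-0.16, adjusted p = 0.955) were not called, and 4 of 5 female-biased P450 genes fell, namely Cyp17a1, Cyp2a4, Cyp2b13 and Cyp3a41a. None of the 3 male-biased P450 genes was called there, and their median was 0.78. Of the female-biased genes outside the P450 family 4 of 9 fell and 1 rose, but 3 of 5 male-biased ones fell as well. In WT mice Gm21783 did not pass the test for diet (-0.13 ± 0.58 in periportal IBA1+ segments, -0.93 ± 0.37 in PanCK+ segments). Because the labels do not give the sex, genotype, diet and the sex of the mice cannot be told apart for these members. The same holds for all other members in comparisons that use control diet-fed TrailΔmye segments. Several members also have close copies in the genome, Cyp2a4, Cyp3a41a, Cyp4a10, Cyp4a12a, Cyp2d10 and Cyp2c67 among them, and how far the probes separate the copies was not stated in any source read.

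**Figure D4:**
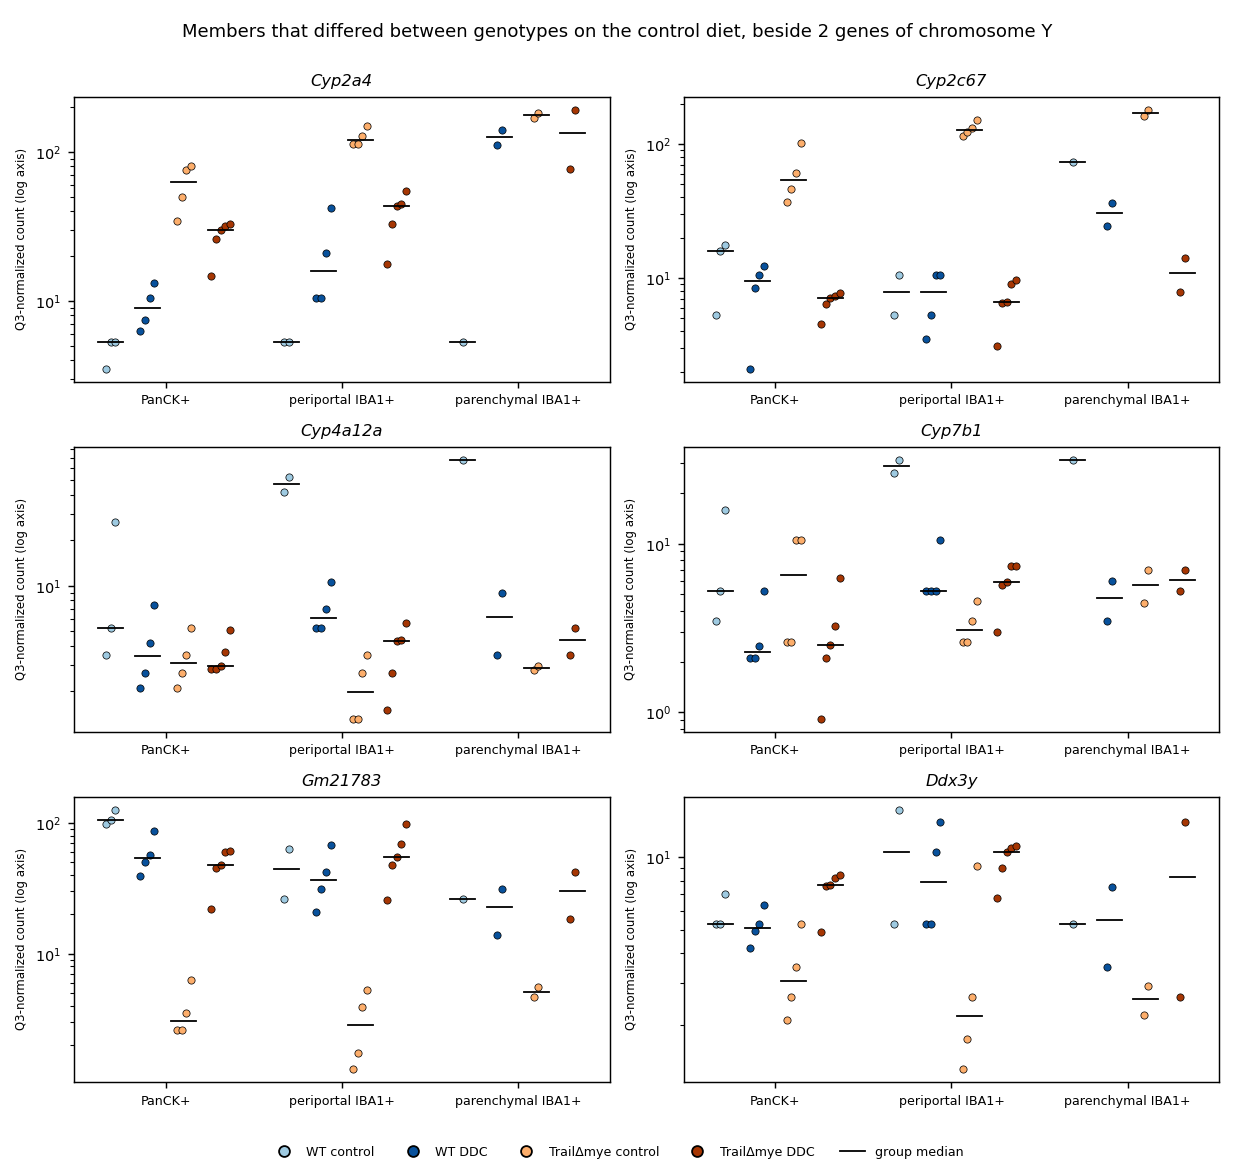
Q3-normalized counts (log axis) in every segment of 4 P450 genes that differed between genotypes on control diet and, in the bottom row, of Gm21783 and Ddx3y of chromosome Y, with group medians as lines. Control diet-fed TrailΔmye segments were high for Cyp2a4 and Cyp2c67 and low for Gm21783, which stood at 1.31 to 6.30 there and at 14.0 to 126 in all other segments.

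On DDC diet no member differed between genotypes by edgeR's test in either periportal class. In PanCK+ segments, where 0.152% of all genes were called (0.0948% higher and 0.0569% lower), 6 members had an unadjusted p under 0.05 and DESeq2 called 1, and the lowest adjusted p was that of Cyp2a4 (1.52 ± 0.40, adjusted p = 0.0874). It stood at 7.41, 6.30, 13.1 and 10.5 in WT mice and at 25.9, 32.9, 32.0, 14.6 and 29.8 in TrailΔmye mice, with no overlap. In periportal IBA1+ segments, where 0.019% of all genes were called, 1 member had an unadjusted p under 0.05, Cyp3a41a (1.62 ± 0.68, adjusted p = 1), and DESeq2 called none. The DDC-fed WT segments of this class had totals of 20319 to 34302, and at this depth the missing calls do not show that the genotypes were alike.

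The next comparison was between zones. Parenchymal IBA1+ segments had 13 of 50 members higher and none lower than periportal IBA1+ segments, with genotype and diet group as a term, while 1.35% of all genes were called higher and 0.882% lower (2.23% in either direction). The member median was 0.46 and that of all genes -0.04. Of the 7 members known as pericentral, 5 were called higher (list median 1.06). Cyp2c29 ranged from 62.5 to 218 in the 7 parenchymal segments (median 91.0) and from 15.7 to 52.5 in the 15 periportal ones (median 24.8), with no overlap (1.85 ± 0.24, edgeR adjusted p = 5.07e-08). Cyp2e1 (1.68 ± 0.25, adjusted p = 5.37e-06) and Cyp1a2 (1.63 ± 0.24, adjusted p = 3.99e-06) were higher as well, as were Cyp2c50 (1.06) and Cyp7a1 (0.95). Their groups overlapped. Outside this list, Cyp2a4 (1.48), Cyp3a41a (1.15), Cyp4a14 (1.14), Cyp2d10 (1.00), Cyp2c67 (0.96), Cyp2c70 (0.95), Cyp2a22 (0.86) and Cyp4a10 (0.81) were called higher. The call of Cyp2c67 held in 6 and that of Cyp2a22 in 9 of 22 fits that each left out 1 segment. The periportal members Cyp2f2 and Cyp8b1 were not called, with a list median of 0.13.

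Hepatocyte markers were also higher in the parenchymal segments, 5 of 8 with a median of 0.90, and their part in the zonal differences was not tested. Of zonal genes that are no P450 genes, 4 of 9 pericentral ones were higher (median 0.75) and 2 of 12 periportal ones (median 0.15). When counts were scaled to the hepatocyte markers instead, 3 members were called higher and 2 lower, with a member median of -0.31 and a median of -0.85 over all genes. Of all 10547 genes, 6 were called higher and 2036 lower on that scale. Without the parenchymal segment of ROI 038, 7 members were called.

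PanCK+ and IBA1+ segments of the periportal ROIs were compared with the group as a term. PanCK+ segments had 1 member higher and 8 lower, against 15.8% of all genes called (6.55% higher and 9.28% lower), with medians of -0.29 and -0.06. The share of members called was close to that of all genes. Scaled to the hepatocyte markers, 6 members were called higher and none lower, against 1920 and 114 of all genes. The median was 0.36 over members and 0.52 over all genes, so the direction depends on the scale. Cyp2j6 was higher (1.41 ± 0.20, edgeR adjusted p = 1.14e-08), in 12 of the 15 ROIs that gave both segments. It ranged from 13.3 to 30.1 in PanCK+ segments of DDC-fed mice of both genotypes and from 3.09 to 15.8 in their periportal IBA1+ segments, with some overlap. Cyp4f18 was lower (-1.09 ± 0.16, adjusted p = 4.87e-08), with the higher value in the PanCK+ segment in 2 of 15 ROIs. Cyp27a1, the mitochondrial sterol 27-hydroxylase, which macrophages also carry, was lower in PanCK+ segments by a log2 change of -1.02 ± 0.18 (adjusted p = 4.89e-06). Cyp2f2 (-0.93), Cyp2a4 (-0.79), Cyp2e1 (-0.77), Cyp2d10 (-0.76), Cyp7b1 (-0.68) and Cyp2c29 (-0.51) were lower too, and 6 of 8 hepatocyte markers were lower with them (median -0.74). The call of Cyp7b1 held in 10 of 31 fits that each left out 1 segment. Without the PanCK+ segment of ROI 035, 17 members were called, and without both segments of that ROI 15 were called. This ROI of a DDC-fed TrailΔmye mouse had the highest totals of its groups, 836971 in its PanCK+ segment and 568719 in its IBA1+ segment.

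**Figure D5:**
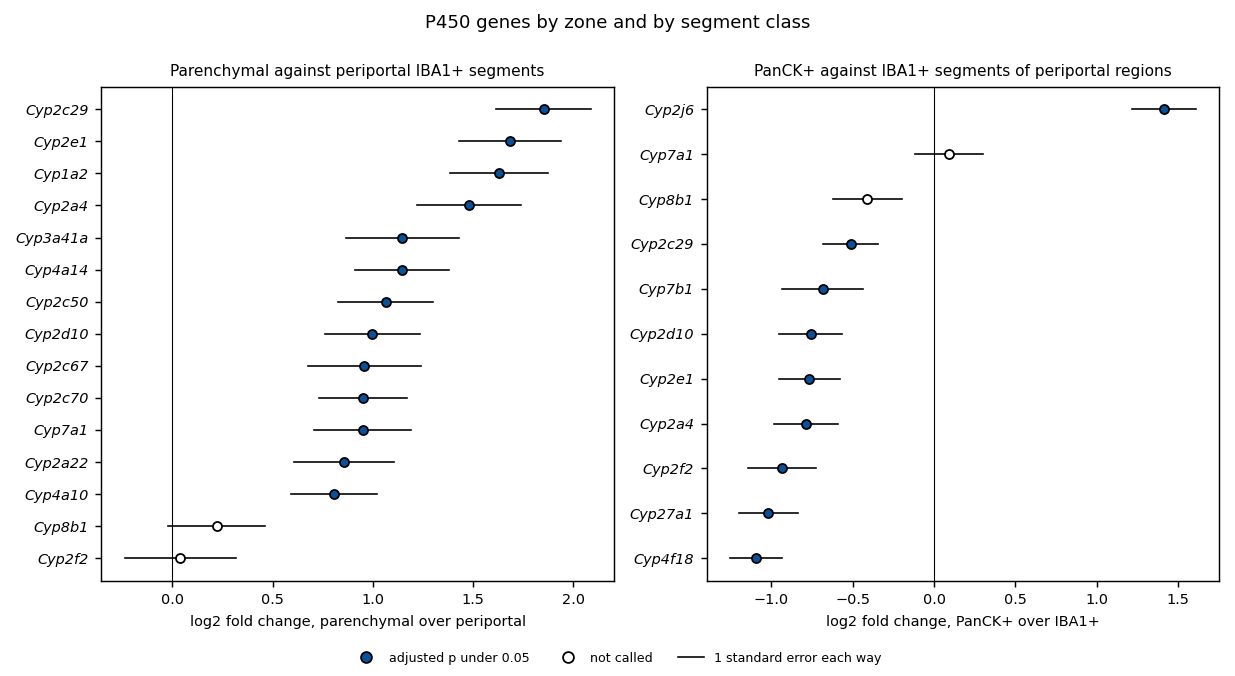
Log2 fold changes with 1 standard error to each side for parenchymal over periportal IBA1+ segments (left) and PanCK+ over IBA1+ segments of periportal ROIs (right). Each panel shows the members called in its own comparison, and Cyp2f2, Cyp8b1, Cyp2e1 and Cyp7a1. Cyp2c29 was highest on the left at 1.85, and Cyp2j6 on the right at 1.41 was the only called member higher in PanCK+ segments. On the scale of hepatocyte markers 6 members were called higher and none lower on the right, against 1920 and 114 of all genes.

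Of the 5 measured P450 enzymes listed above for making bile acids from cholesterol, 1 was called in a diet comparison. Cyp2c70, given above for muricholic acids, was not on that list and also fell in periportal IBA1+ segments of TrailΔmye mice. Cyp8b1, the sterol 12α-hydroxylase that directs synthesis to cholic acid, fell with DDC in periportal IBA1+ segments of TrailΔmye mice, from 5.25, 13.1, 15.8 and 13.1 Q3-normalized counts to 4.33, 5.66, 3.28, 6.34 and 0.7503 (-1.43 ± 0.30, edgeR adjusted p = 0.00039), where all 8 hepatocyte markers fell too. The groups overlapped through the control segment of ROI 026. In the same class of WT mice it stood at 31.5 and 26.3 on control diet and at 5.25, 5.25, 5.25 and 7.00 (1 or 2 counts) on DDC, without passing the test (-2.28, adjusted p = 0.106). Cyp7a1, the rate-limiting enzyme of the classical route, was called in no diet comparison. It stood at 10.5, 9.19, 5.91 and 13.1 and at 4.94, 4.85, 3.28, 7.93 and 4.502 in periportal IBA1+ segments of TrailΔmye mice, and at 1 count in all 6 such segments of WT mice. It was higher in parenchymal segments, as given above. Cyp27a1, which opens the alternative route, stood at 10.5, 13.1, 21.0 and 22.3 and at 8.65, 11.3, 8.53, 10.3 and 19.5 (-0.64, adjusted p = 0.118). Cyp7b1, the next enzyme of that route, was called in the genotype comparison on control diet and for PanCK+ against IBA1+ segments, and not for diet (-2.03 in WT periportal IBA1+ segments, adjusted p = 0.194). Cyp39a1, a 7α-hydroxylase of 24-hydroxycholesterol, was called in no comparison and stood at 15.8, 13.1, 14.4 and 5.25 and at 7.41, 8.89, 9.19, 8.92 and 6.75 in periportal IBA1+ segments of TrailΔmye mice.

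Genes that work with the P450 enzymes were read from the same fits. In periportal IBA1+ segments of TrailΔmye mice, where most of the calls below were made, 5.18% of all genes were called lower and all 8 hepatocyte markers fell (median -1.82), and the part of the latter in these calls was not tested. Of 8 redox partners, 3 fell with DDC in periportal IBA1+ segments of TrailΔmye mice, Cyb5b, Fdx1 and Fdx2, none rose, and the list median was -0.79. In the other diet comparisons none of the 8 was called. Of 11 further enzymes of bile acid synthesis 4 fell in periportal IBA1+ segments of TrailΔmye mice, Akr1d1, Amacr, Slc27a2 and Slc27a5 (list median -0.62). Slc27a2, an activating enzyme for bile acid side chains, was the one that fell in all 5 diet comparisons, together with Slc27a5 in PanCK+ segments of TrailΔmye mice, Slc27a5 and Scp2 in periportal IBA1+ segments of WT mice and Scp2 in WT PanCK+ segments. Of 10 genes of heme metabolism 2 fell in periportal IBA1+ segments of TrailΔmye mice, Alas1 and Cpox. Alas1, the first and rate-limiting enzyme of heme synthesis, stood at 87.5, 98.5, 97.8 and 85.3 on control diet and at 27.2, 23.4, 16.4, 20.6 and 22.5 on DDC (-2.07 ± 0.27, edgeR adjusted p = 6.3e-08). It also fell in PanCK+ segments of TrailΔmye mice (-1.31 ± 0.29, adjusted p = 0.00205), with no overlap in either class. Of 14 regulators, 5 fell in periportal IBA1+ segments of TrailΔmye mice and none rose. These were Nr1i3 (-1.31), the receptor CAR, Rxra (-1.03), its partner, Hnf4a (-0.98), Ppara (-0.94) and Nr1h3, a sterol receptor. Hnf4a is also one of the 8 hepatocyte markers, so it is counted in both lists. No regulator was called in the other diet comparisons.

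Over the 14 comparisons 30 of the 50 members were called at least once and 20 were not. The latter were 8 of 24 in family 2, 1 of 3 in family 3, 6 of 11 in family 4 and 5 of the 10 in other families, and 6 of them had a mean of 10 counts or more. Their mean Q3-normalized counts ran from 4.495 (Cyp26a1) to 53.0, the highest being that of Cyp2d12, another member of the Cyp2d group. In periportal IBA1+ segments of TrailΔmye mice Cyp2d12 stood at 49.0, 53.8, 53.8 and 57.8 on control diet and at 58.1, 47.7, 49.2, 25.8 and 59.3 on DDC. These groups overlapped, with the lowest value in ROI 035, whereas Cyp2d26 stood at 87.5, 94.5, 87.3 and 99.8 and at 21.6, 25.0, 24.3, 18.6 and 33.0 in the same segments, with no overlap.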

How the data were processed

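Formalin-fixed liver sections were hybridized with the mouse Whole Transcriptome Atlas probes, and barcodes released from each segment were amplified (18 cycles) and sequenced. Tests used the estimated counts of the authors per gene and segment as deposited, after they had filtered by the limit of quantification and kept targets detected in over 10% of ROIs. The submitters' notes name bcl2fastq and mm10, while the aligner and all versions were not given in the sources used here. The lowest value is 1, and 3 genes with values that are not whole were rounded. Levels (signal) were taken from the deposited Q3-normalized counts of the authors, and a check found each segment's values to be its counts times 1 factor. All columns were mapped to samples (0 were left out).

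Each segment class was fitted by the quasi-likelihood method of edgeR 4.0.16 under R 4.3.3 (75th percentile factors, 1 coefficient per group, no filter) over 10547 genes, with two-sided tests and a threshold of 0.05 on the Benjamini-Hochberg adjusted p. Standard errors were obtained by dividing the absolute log2 fold change by the root of the F statistic. Parenchymal segments had additive terms for diet and genotype, and comparisons of classes and zones had a term for the group. Where all segments of a group stood at 1 count, a fold is a bound against 3 counts per segment. Total counts of 20319 to 836971 limit the precision of low genes, and counts after amplification cover counting error only. Plots were drawn with matplotlib 3.10.9 in Python 3.11.15, and the fits were tested on simulated data.

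The genes named are every P450 gene called in any comparison, the 10 with the highest mean, those of bile acid synthesis, sex-biased P450 genes, the extremes of each diet comparison, and genes of fixed lists, with Gm21783 and Ddx3y as sex-linked genes. The members, the lists and this rule were chosen with earlier results of these data known. Results were recomputed with DESeq2 1.42.0, TMM factors, limma 3.58.1 on log2(Q3-normalized count + 1), edgeR's filter on low counts, counts of 1 set to 0, thinning to the smallest total of a class, scaling to hepatocyte markers, only the compared groups, each segment left out in turn and the ROI as a block. Both segments of ROI 035 were left out as an alternative added after seeing the data.

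The PanCK+ and IBA1+ segments of a periportal ROI share a piece of tissue, and 15 ROIs gave both. The correlation of their deviations from the group means, over 3089 genes, ran from -0.02 to 0.53 around a median of 0.03 and was over 0.1 in 5 ROIs, all of DDC-fed TrailΔmye mice. Genes are not independent replicates. Only the comparison of PanCK+ with IBA1+ segments can be paired by ROI.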

Additional observations from a re-analysis of the deposited data

Results flagged for a closer look

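Among 181 groups of 4 or 5 segments, 15 values of P450 genes were flagged by Dixon's ratio as apart from the rest of their group. Chance gives such a flag in about 1 of 20 groups where values are continuous. That rate does not hold for groups with tied values, whether tied at 1 count or above it. In DDC-fed WT mice the segments of ROI 013 were the highest for Cyp17a1 (8.40 Q3-normalized counts, PanCK+) and, in the periportal IBA1+ class, for Cyp2d40 (7.00), Cyp4f14 (7.00), Cyp7b1 (10.5) and Cyp8b1 (7.00). The periportal IBA1+ segment of ROI 009 was the highest of the same group for Cyp2j6 (15.8), Cyp3a13 (26.3) and Cyp4a14 (15.8). In DDC-fed WT PanCK+ segments ROI 011 was high for Cyp7b1 (5.25) and ROI 007 for Cyp8b1 (9.89). In each of these 10 groups the high segment had 2 to 5 counts and the other 3 segments stood at 1 count, so these values rest on the lowest value of the table.

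In control diet-fed TrailΔmye mice the PanCK+ segment of ROI 029 was high for Cyp2e1 (155), and the periportal IBA1+ segment of ROI 026 for Cyp2a22 (56.0). The same segment of ROI 029 was flagged for Cyp2c29 (23.1) only because the other segments were tied at 21.0, so it lay close to them. In DDC-fed TrailΔmye mice the IBA1+ segment of ROI 036 was high for Cyp27a1 (19.5) and the PanCK+ segment of ROI 034 was low for Cyp4a14 (0.913).

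The interaction term was called for Cyp2d10 in PanCK+ segments (2.27 on the log2 scale, TrailΔmye minus WT) and for Cyp4a12a in periportal IBA1+ segments (3.65). The call of Cyp2d10 held in 3 of 16 fits that each left out 1 segment and was lost with TMM factors, limma and DESeq2. That of Cyp4a12a held in 11 of 15 such fits and was lost with DESeq2.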

How the results depend on the processing

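The number of P450 genes called depended on the scale and on depth. Scaled to hepatocyte markers, the DDC comparison in periportal IBA1+ segments of TrailΔmye mice gave values above 0 for 20 members that had fallen. These were Cyp17a1 (0.18), Cyp1a2 (1.40), Cyp2a22 (0.97), Cyp2a4 (0.41), Cyp2b13 (0.0041), Cyp2c23 (0.46), Cyp2c29 (1.15), Cyp2c37 (0.12), Cyp2c50 (1.11), Cyp2c70 (0.80), Cyp2d26 (0.31), Cyp2d40 (1.27), Cyp2e1 (0.0973), Cyp2f2 (0.50), Cyp2j5 (0.58), Cyp3a13 (1.42), Cyp4a10 (0.30), Cyp4a14 (0.18), Cyp4f14 (0.66) and Cyp8b1 (0.94), against a shift of 2.38 in the median of all genes. Thinning turned Cyp2d40 (0.0857) and Cyp3a13 (0.24). Between PanCK+ and IBA1+ segments, hepatocyte scaling turned Cyp2c29 (0.14) and Cyp7b1 (0.0375). The markers used for this scale fell themselves, and other causes were not tested.

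For the diet in WT PanCK+ segments (2 members called), the low-count filter gave 5, thinning 1 and limma 6. In TrailΔmye PanCK+ segments (6) TMM gave 10 and DESeq2 10, all lower, thinning 3, and hepatocyte scaling 18. The median of all genes was 0.18 there, -0.06 with TMM and -0.15 with DESeq2. In WT periportal IBA1+ segments (3) counts of 1 set to 0 gave 5, thinning 7, limma 15 and DESeq2 7. In TrailΔmye periportal IBA1+ segments (24) thinning gave 4. In the parenchyma (6) TMM gave 3. For the genotype on control diet, hepatocyte scaling gave 2 in PanCK+ segments (4) and thinning 3 in periportal IBA1+ segments (6). On DDC in PanCK+ segments (0) the low-count filter and DESeq2 gave 1 each. For the genotype in the parenchyma (2) TMM gave 1, hepatocyte scaling 4, limma 0 and DESeq2 1. For the interaction in PanCK+ segments (1, higher) the low-count filter gave 3, thinning 0 and DESeq2 0, while TMM and limma each called 1 lower in place of it. In periportal IBA1+ segments (1) the low-count filter gave 3, thinning 0, hepatocyte scaling 2, limma 4 and DESeq2 0, while counts of 1 set to 0 gave 1 lower in place of it. Between PanCK+ and IBA1+ segments (9) the low-count filter gave 5, thinning 2 and leaving out ROI 035 gave 15. Between zones (13) thinning gave 4 and hepatocyte scaling 5. The split of higher and lower calls also moved. With hepatocyte scaling it was 1 and 1 (0 and 2 before) for diet in WT PanCK+ segments, 3 and 1 (0 and 3) in WT periportal IBA1+ segments, 5 and 3 (0 and 6) in the parenchyma, 3 and 1 (0 and 2) for genotype in the parenchyma and 6 and 0 (1 and 8) between classes. Over all genes these splits were, in the same order, 365 and 12, 665 and 13, 559 and 20, 118 and 7, and 1920 and 114. TMM gave 1 and 1 for diet in WT PanCK+ segments and 2 and 6 between classes, and DESeq2 gave 1 and 2 in WT PanCK+ segments and 1 and 5 in the parenchyma.

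With 1 segment left out at a time, the number of members called ran from 1 to 2 (WT) and 4 to 10 (TrailΔmye) for diet in PanCK+ segments, 1 to 6 and 20 to 25 in periportal IBA1+ segments and 2 to 8 in the parenchyma. For genotype on control diet it ran from 2 to 3 in PanCK+ and 2 to 6 in periportal IBA1+ segments, on DDC from 0 to 1 and 0 to 0, and in the parenchyma from 1 to 3. It ran from 0 to 1 and 0 to 2 for the interactions, 8 to 17 between classes and 7 to 15 between zones. Of 1018 such values for single members, 872 kept direction and call, 146 lost the call and 0 turned. With the ROI as a replicate block, 13 members were called between PanCK+ and IBA1+ segments (2 higher, 11 lower), and of the 9 called without it only Cyp7b1 lost its call. Of the 77 calls, 23 held with hepatocyte scaling (32 lost, 22 turned), 32 with thinning (43 lost, 2 turned), 64 with TMM, 63 with limma and 67 with counts of 1 set to 0. DESeq2 kept 65 of the 74 for which it gave an adjusted p, and the low-count filter 62 of the 68 it tested.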
